A study of Lotus japonicus with 12 samples.

Results

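Ageing of root nodules in the cpop1 mutant of the legume Lotus japonicus was examined in 6 RNA sequencing libraries, 3 from nodules at 10 days post inoculation (dpi) and 3 from nodules at 21 dpi. They are the cpop1 libraries among the 12 of the series, chosen by genotype and age alone, and the other 6 are wild-type (WT) nodules at the same ages, again 3 per age. Plants of every group were inoculated with the rhizobium Mesorhizobium loti MAFF 303099, and all libraries came from root nodule. The mutant is written cpop1/hemf2 in the genotype label. The labels give neither the nature of the mutation, nor the number of alleles or plants, nor whether replicates came from separate plants, so p-values reflect only the spread between these libraries, which may be technical.

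Root nodules house rhizobia that reduce atmospheric nitrogen for the plant, and their oxygen level must be kept low because nitrogenase is destroyed by oxygen. Leghemoglobin, an abundant plant protein of infected cells that carries heme, buffers this oxygen, which makes nodules large consumers of heme. CPOP1 is named in the series title as an enzyme of heme synthesis, and genes called hemF in bacteria and other plants encode coproporphyrinogen oxidase, an enzyme of a late step of that pathway. Lotus forms determinate nodules, in which the infected cells age together, so that 10 and 21 dpi sample a young stage, as the series' design text calls it, and a mature one. The comparison of 21 with 10 dpi within cpop1 shows how the transcriptome of the mutant nodules changed between these stages.

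Transcript levels were deposited as FPKM, the number of fragments per kilobase of a transcript relative to all fragments sequenced. None of the identifiers (IDs) in the table matched the RefSeq table of gene names (0 of 29531 rows), so features are given by ID and no gene is named. The nodule identity of the libraries and the state of the mutated gene could not be checked from markers for the same reason. Totals of FPKM lay between 1024398 and 1065687 at 10 dpi and between 1186554 and 1224719 at 21 dpi, and they are not read depths. Correlations of log2(FPKM + 1) across genes were 0.968 to 0.986 among the young cpop1 libraries, 0.989 to 0.991 among the mature ones, and 0.912 to 0.92 between the ages. In WT at 10 dpi, replicate 3 stood apart from replicates 1 and 2 (0.839 and 0.846) and nearer to the young cpop1 libraries (0.925 to 0.943). The numbers of WT calls, the overlaps with cpop1 and the genotype differences are therefore given with and without this library. Other values that use WT include it unless stated. Its label may be wrong, which was not tested, and it was kept under it.

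Between 10 and 21 dpi, more transcripts of cpop1 nodules fell than rose with FPKM as deposited, a split that depended on the scaling (below). The test covered the 20431 of 29531 features that reached 1 FPKM in at least 3 of the 6 libraries, and 10384 of them (50.8%) changed with age (limma on log2(FPKM + 1), Benjamini-Hochberg adjusted p under 0.05). Of these, 7369 (36.1% of those tested) were lower and 3015 (14.8%) higher at 21 dpi. Falls also outnumbered rises among the larger changes: 2658 features fell (13%) and 1007 rose (4.93%) by at least 2-fold, 529 fell and 190 rose by at least 4-fold, and 99 fell and 41 rose by at least 8-fold. These folds are of FPKM + 1, which understates the changes of features with low values. The 3 young and the 3 mature libraries did not overlap in 12403 features (60.7%), of which 8640 were lower and 3763 higher at 21 dpi. The libraries are of whole nodules, so fewer cells of a type and less RNA per cell cannot be told apart. Without single libraries the number of changed features lay between 8197 and 11424.

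The split between falls and rises depended on how libraries were scaled to each other. The median change of all tested features was -0.20 on the log2 scale without rescaling, and 0.06 when the libraries were set to 1 median. It was 0.04 with quantile normalization, -0.38 when every library was set to the same total and -0.07 when that total left out the 20 most abundant features. The share of changed features that were higher was 29% without rescaling, and 54.7%, 51.7%, 17.5% and 41.2% under these scalings in the order given. Relative to the median change as deposited, 1944 of the called features fell and 1419 rose by at least 2-fold. By at least 8-fold, 71 fell and 62 rose. Only the size was counted from the median, and the test against no change was not repeated. Features that passed the test in the same direction under all 5 scalings numbered 6412, of which 4324 (21.2% of those tested) fell and 2088 (10.2%) rose. All 99 features that fell and all 41 that rose by at least 8-fold as deposited were among them. The split of the 6412 was limited by the scalings chosen. The common total called only 2092 features higher, and the shift to 1 median only 4492 lower. It therefore does not show an excess of falls that is free of scaling.

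**Figure D1:**
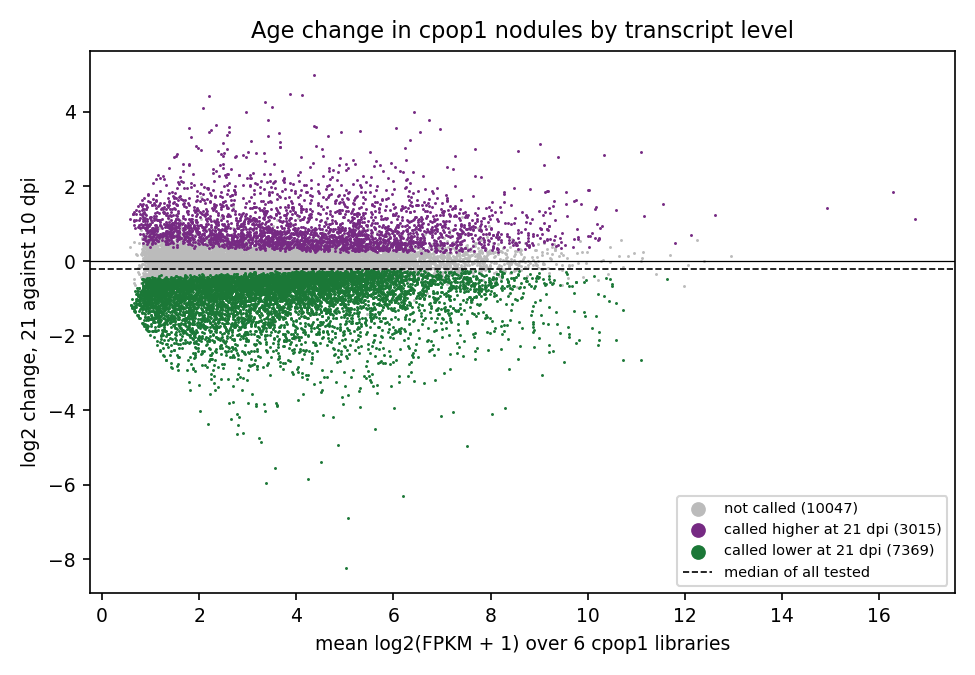
Log2 change from 10 to 21 dpi in cpop1 nodules (y axis) against the mean log2(FPKM + 1) over the 6 libraries (x axis), 1 point per tested feature. The median of the cloud lies at -0.20 (dashed line), and its lower side reaches -8.24 against 4.98 on the upper side.

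The size of the largest falls can be read from the individual libraries. LotjaGi4g1v0268200_LC was at 934.8, 623.6 and 301.4 FPKM in the young libraries and at 0.97, 1.21 and 0.48 FPKM in the mature ones. Its mean level was thus 699 times higher at 10 than at 21 dpi, and all 3 young libraries lay far above all mature ones although they differed among themselves. The log2 change was -8.24 ± 0.38 (SE; limma adjusted p = 1.82e-05). In WT nodules it was at 274, 214 and 63.1 FPKM at 10 dpi and at 50.4, 64.1 and 69.2 at 21 dpi, so that all mature WT libraries lay above all mature cpop1 libraries. The age change itself differed between the genotypes by -6.90 ± 0.73 in log2 units (limma adjusted p = 0.000237), and by -6.26 without WT 10 dpi replicate 3.

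LotjaGi1g1v0539200 was at 459.9, 340.2 and 307.1 FPKM in young and at 1.55, 1.74 and 3.1 FPKM in mature cpop1 nodules, without overlap. The log2 change was -6.90 ± 0.22 (SE; limma adjusted p = 7.43e-06), and the mean level was 173 times higher at 10 dpi. WT nodules held 13.9, 10.2 and 598.9 FPKM at 10 dpi, the high value in the replicate 3 that stood apart, and 0.19, 0.37 and 0.19 FPKM at 21 dpi. A difference of this fall between the genotypes did not pass the test with all libraries (-1.68 ± 1.63, limma adjusted p = 0.509). Without WT 10 dpi replicate 3 it passed (-3.52 ± 0.31, limma adjusted p = 1.97e-05), so that library decided the call. On the log2(FPKM + 1) scale the fall was then larger in cpop1, but the mature WT values lay below the 1 FPKM added. This understates the WT fall more than that of cpop1, and its part in the difference was not tested. The WT mean at 10 dpi was 831 times that at 21 dpi with all libraries. Without replicate 3 the WT mean at 21 dpi was 0.0207 times that at 10 dpi.

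The feature that rose most was LotjaGi5g1v0078900. It was at 2.38, 3.65 and 2.07 FPKM in the young and at 116.6, 118.5 and 106.5 FPKM in the mature cpop1 libraries. The libraries of each age lay close together, the mean level was 42.2 times higher at 21 dpi, and the log2 change was 4.98 ± 0.16 (SE; limma adjusted p = 7.43e-06). In WT the feature stood at 2.74, 2.36 and 7.18 FPKM at 10 dpi and 7.08, 5.13 and 5.15 FPKM at 21 dpi, all far below the mature cpop1 libraries. The difference of the age changes was 4.46 ± 0.43 on the log2 scale (limma adjusted p = 0.000127), and 4.05 without WT 10 dpi replicate 3.

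BGI_novel_G000769, a transcript outside the LotjaGi IDs, rose from 3.09, 2.39 and 1.14 FPKM to 79.9, 54.5 and 73.9 FPKM in cpop1. Its log2 change was 4.49 ± 0.25 (SE; limma adjusted p = 2.89e-05). WT nodules were at 39.3, 32.6 and 0.65 FPKM at 10 dpi and at 248.6, 205 and 149.1 FPKM at 21 dpi, so mature cpop1 nodules lay below mature WT nodules. With all libraries neither the change in WT alone (3.92 ± 1.22, limma adjusted p = 0.0698) nor the difference of the changes (0.57 ± 1.35, limma adjusted p = 0.806) passed the test. Without WT 10 dpi replicate 3 both passed, with a WT change of 2.43 ± 0.20 (limma adjusted p = 0.000228) and a difference of 2.06 ± 0.37 (limma adjusted p = 0.00173).

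The changes in cpop1 kept their direction and passed the test for these 4 features under all alternatives run.

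**Figure D2:**
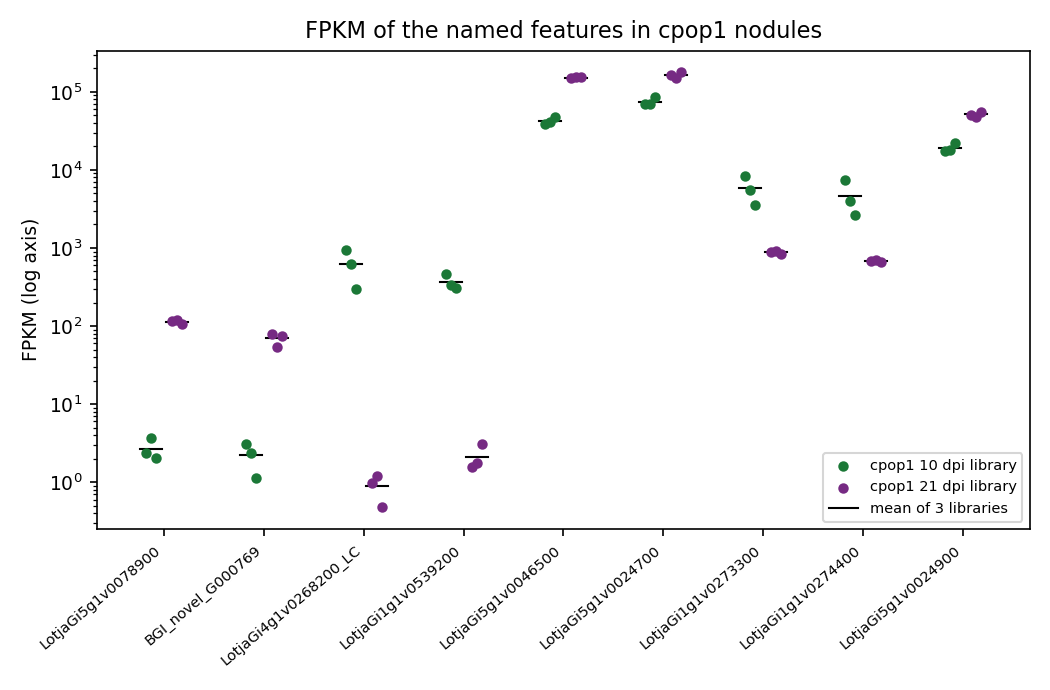
FPKM (log axis) of the named features in each of the 6 cpop1 libraries, green for 10 dpi and purple for 21 dpi, with the mean of 3 libraries as a bar. The young and mature libraries of each feature are separate, and LotjaGi1g1v0273300 spread from 3559 to 8385 FPKM at 10 dpi but only from 835.4 to 907.9 FPKM at 21 dpi.

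The most abundant transcripts took up a larger part of the transcriptome in mature than in young cpop1 nodules. LotjaGi5g1v0024700, LotjaGi5g1v0046500 and LotjaGi5g1v0024900 had the highest mean levels over the 6 libraries. Together they held 12.2%, 12.3% and 14.6% of total FPKM in the young and 30.6%, 29.6% and 31.6% in the mature libraries. The increase of 17.6 percentage points left no overlap between the ages (exact two-sided permutation p = 0.1, the lowest value possible with 3 libraries per age). The 20 most abundant features of each library held 19.7 ± 1.34% at 10 dpi and 37.1 ± 1.03% at 21 dpi (SD, n = 3 each; exact permutation p = 0.1), an increase of 17.4 percentage points. The 1000 most abundant held 58.5 ± 0.822% and 68.3 ± 0.883% (SD, n = 3 each).

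LotjaGi5g1v0046500 rose most among them, from 38723, 41345 and 47173 FPKM to 148054, 152653 and 155813 FPKM. The mature level was 3.59 times the young one, and the log2 change was 1.85 ± 0.33 (SE; limma adjusted p = 0.00275). LotjaGi5g1v0024900 went from 17361, 17868 and 22103 FPKM to 50962, 48214 and 55026 FPKM, 2.69 times the young level, and its log2 change was 1.43 ± 0.25 (SE; limma adjusted p = 0.00272). LotjaGi5g1v0024700 went from 68878, 69125 and 86115 FPKM to 164464, 151198 and 176570 FPKM, 2.2 times the young level (log2 change 1.14 ± 0.37 SE; limma adjusted p = 0.0341). The young and mature libraries of all 3 features were separate. LotjaGi5g1v0046500 lay below LotjaGi5g1v0024700 in every young library, whereas their mature libraries overlapped.

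The calls of these 3 features depended on the settings of the fit, in both directions. For LotjaGi5g1v0024700 the adjusted p (limma) was 0.0763 with all 12 libraries in the fit and between 0.0836 and 0.145 without cpop1 10 dpi replicate 2 or any single mature library. Quantile normalization sets equal ranks to equal values, and these 3 features held the 3 highest ranks in every cpop1 library. It could therefore not show their rise, and gave changes of -0.15 for LotjaGi5g1v0024700, 0.15 for LotjaGi5g1v0046500 and 0 for LotjaGi5g1v0024900. Without the filter on low values none of the 3 passed (limma adjusted p = 0.565, 0.258 and 0.127 in the same order). With the filter at 5 FPKM all 3 passed more clearly (limma adjusted p = 0.00405, 0.000274 and 0.000537). The same held for limma without the trend (adjusted p = 0.000545, 6.58e-05 and 0.000234).

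In WT the same features also had higher means at 21 than at 10 dpi, 1.51 times for LotjaGi5g1v0024700, 2.14 times for LotjaGi5g1v0046500 and 1.93 times for LotjaGi5g1v0024900. A difference of these changes between the genotypes did not pass the test (limma adjusted p = 0.607, 0.357 and 0.49, in the same order). Without WT 10 dpi replicate 3 the WT ratios were 1.43, 2.19 and 1.81, and the adjusted p of the difference was 0.315, 0.162 and 0.172 (limma). This does not show that the changes were equal.

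FPKM are relative to the library, so the rise of these 3 features and the level of all others are tied. The FPKM total of all other features was 899436, 914127 and 910295 in the young and 823075, 837750 and 837310 in the mature libraries, lower in each mature library. The part of this shift in the excess of falls was not tested beyond the rescaling without the 20 most abundant features, in which 5755 features fell and 4039 rose.

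**Figure D3:**
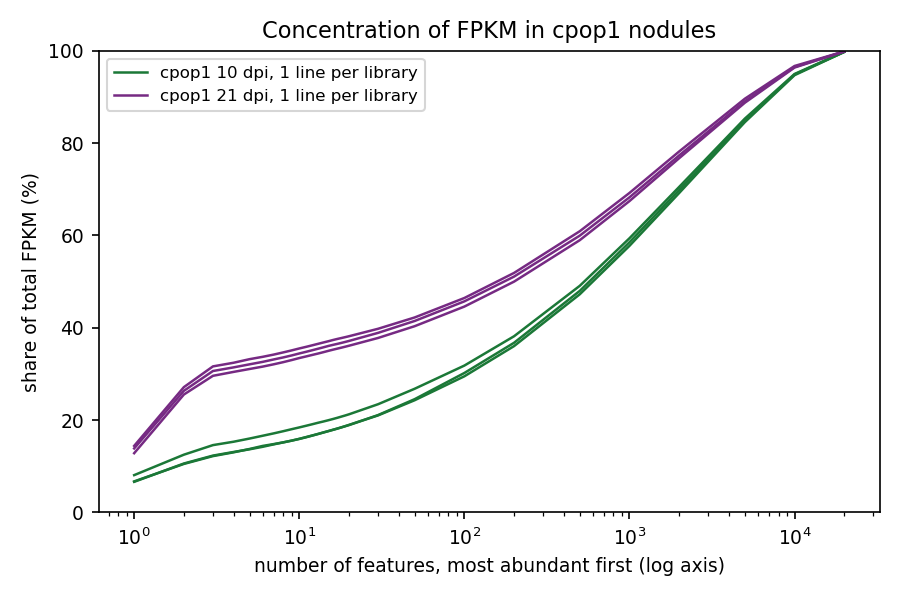
Share of total FPKM (y axis, %) held by the most abundant features of a library (x axis, number of features on a log axis), 1 line per cpop1 library, green for 10 dpi and purple for 21 dpi. The lines part within the first 3 features and the mature libraries stay above the young ones, at 37.1% against 19.7% on average for 20 features.

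A pair of other abundant features carried the largest loss of FPKM among those that fell by at least 2-fold. LotjaGi1g1v0273300 was at 8385, 5585 and 3559 FPKM in young and at 898.4, 907.9 and 835.4 FPKM in mature cpop1 nodules, which gave a log2 change of -2.64 ± 0.29 (SE) with a limma adjusted p of 0.000306. LotjaGi1g1v0274400, whose ID lies near on the same chromosome prefix, was at 7450, 3970 and 2624 FPKM and then at 688.5, 703.8 and 653.5 FPKM (log2 change -2.64 ± 0.34 SE; limma adjusted p = 0.000628). Both were highest in young replicate 1 and lowest in young replicate 3, both lay without overlap between the ages, and the deposited values do not show whether they share reads.

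The WT libraries of the ages overlapped in both features. LotjaGi1g1v0273300 stood at 8527, 7932 and 2283 FPKM in WT at 10 dpi and at 7313, 8661 and 8874 FPKM at 21 dpi, and LotjaGi1g1v0274400 at 6192, 6136 and 1940 and then 5676, 6853 and 7069 FPKM, with replicate 3 lowest at 10 dpi. The age change in cpop1 minus that in WT was -3.26 ± 0.66 and -3.28 ± 0.65 in log2 units (SE; limma adjusted p = 0.00702 and 0.00648), and -2.65 and -2.72 without WT 10 dpi replicate 3. The WT change was 0.62 ± 0.57 and 0.63 ± 0.52 with that library, and 0.01 ± 0.17 and 0.08 ± 0.16 without it.

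Fewer features were detected in mature than in young cpop1 nodules at the low and middle levels. Between 20245 and 20488 features reached 1 FPKM in the young and 19169 to 19382 in the mature libraries, and 11046 to 11214 against 9922 to 10227 reached 10 FPKM. At 100 FPKM the counts were 1666 to 1733 against 1560 to 1609, also without overlap, whereas at 1000 FPKM they overlapped, at 76 to 89 against 73 to 78. WT nodules also had fewer features at 1 FPKM, with 19603, 19808 and 20623 at 10 dpi and 18575, 18486 and 18616 at 21 dpi. At 100 FPKM the WT counts were 1527, 1523 and 1846 at 10 dpi and 1598, 1529 and 1643 at 21 dpi. The WT ages overlapped there only through replicate 3 at 10 dpi. Each mature WT library was above young replicates 1 and 2, the opposite direction to cpop1. Counts above a fixed FPKM were not repeated under other scalings. The depth in reads is unknown. The most frequent ratio of low values to those of young replicate 1 lay between 0.966 and 1 across the other cpop1 libraries, over 74 to 186 features per library whose values lay from 0.15 to 0.8 FPKM in both.

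With FPKM as deposited, loss of a transcript from all mature libraries was more frequent than gain. Of 19166 features at 1 FPKM or more in all 3 young libraries, 791 were under 1 FPKM in all 3 mature ones. Of 18258 at 1 FPKM or more in all 3 mature libraries, 236 showed the reverse. Among the 791 and the 236, 32 and 13 were listed at 0 in all 3 libraries of the lower age. These counts were not repeated under other scalings. Transcripts well above 1 FPKM seldom crossed this limit. Of 10235 features at 10 FPKM or more in every young library, 11 were under 1 FPKM in every mature one. Of 9599 at 10 FPKM or more in every mature library, 6 showed the reverse. None of the features at 50 FPKM or more in all libraries of 1 age was under 1 FPKM in all libraries of the other (0 in each direction).

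Of the 11 lost features, 5 stayed at 1 FPKM or more in all 3 WT libraries at 21 dpi and 4 were under 1 FPKM in all 3. Of the 6 gained features, 4 were at 1 FPKM or more and 2 under 1 FPKM in all WT libraries at 21 dpi. These sets were chosen by the age change in cpop1 and are given as a description.

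Rises were more frequent among abundant transcripts, whereas falls were about as frequent at all levels. The share of tested features that rose was 10.6% at a mean under 2 FPKM over the 6 libraries (n = 2707), 11.1% at 2 to 5 (n = 3619), 12.5% at 5 to 20 (n = 6928), 18% at 20 to 100 (n = 5506), 27.3% at 100 to 1000 (n = 1593) and 37.2% at 1000 or more (n = 78). The share that fell stayed between 33.3% and 37.2% over the same classes. Among calls held under all 5 scalings, the share that rose went from 9.09% in the lowest to 28.2% in the highest class, with 8.2% at 5 to 20 FPKM, and the share that fell lay between 19.1% and 24.4%. The median log2 change moved from -0.27 in the lowest class to 0.11 in the highest. The spread between replicates and the effect of the pseudocount also change with level, and their part in this pattern was not tested.

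**Figure D4:**
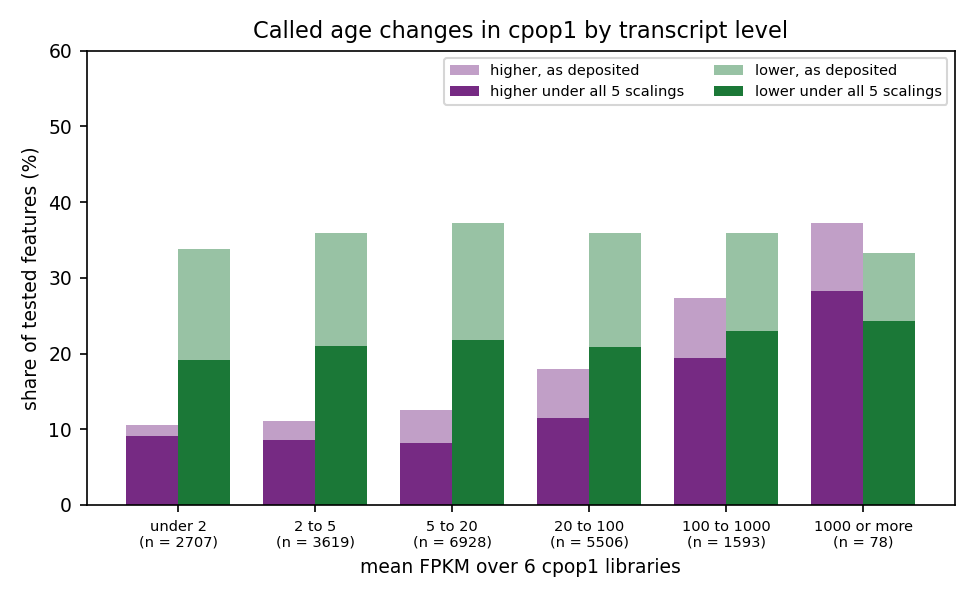
Share of tested features called higher (purple) or lower (green) at 21 than at 10 dpi in cpop1, by mean FPKM over the 6 libraries. Pale bars are calls with FPKM as deposited and the dark part of each bar the calls held under all 5 scalings. The purple bars climb from 10.6% to 37.2% as deposited, while the green bars stay between 33.3% and 37.2%.

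The kind of ID went with the frequency of falls. Of 16175 tested features with a LotjaGi ID on a chromosome digit and no suffix, 38.7% fell and 14.6% rose. Of 2048 with the suffix LC, 26.7% fell and 14.5% rose, and of 2161 BGI_novel features 25.9% fell and 15.7% rose. The LC features together held 6.04%, 6.53% and 6.46% of total FPKM at 10 dpi and 4.81%, 4.81% and 4.99% at 21 dpi, without overlap. The features with the letter C in place of a chromosome digit numbered 29 of those tested, of which 4 rose and 4 fell. Of 18 with the letter M, 5 rose and 1 fell. Chromosome prefixes 1 to 6 differed little, with falls in 35.7% to 38.9% and rises in 14.1% to 15.1% of their features.

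Strong changes lay next to each other along the ID numbers more often than over all pairs of neighbours. Where a feature fell by at least 4-fold, the next tested ID of the same chromosome prefix did so in 6.61% of 499 cases, against 2.74% over all 18216 pairs. For rises of at least 4-fold the shares were 4.17% of 168 cases and 0.922%. Without the limit on size, the next ID fell in 40% of cases against 37.3% of all pairs, and rose in 16.7% against 14.6%. The longest run of falls of at least 4-fold held 5 consecutive tested IDs on chromosome prefix 1, with means of 14.4 to 260 FPKM at 10 dpi and 1.08 to 15.5 FPKM at 21 dpi. Neighbours with similar sequence may share reads, which the deposited values do not show, and these shares carry no test.

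Young cpop1 libraries were less alike than mature ones. The median SD of log2(FPKM + 1) between replicates was 0.191 at 10 dpi and 0.123 at 21 dpi. The 3 young libraries spanned at least 2-fold in 1470 tested features (7.19%) and the 3 mature ones in 402 (1.97%). Replicate 1 was the highest of the young libraries in 681 of the 1470 and the lowest in 638, replicate 3 in 536 and 687, and replicate 2 in 254 and 160. Among the 99 features that fell at least 8-fold, 36 spanned at least 2-fold between the young libraries. Without young replicate 1, 11424 features changed with age, and without young replicate 2 and replicate 3, 8392 and 9765.

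The age change in WT was fitted to the 6 WT libraries alone, which share no library with the cpop1 comparison. There, 3870 of 19872 tested features (19.5%) changed, 2591 lower (13%) and 1279 higher (6.44%) at 21 dpi, and 9933 changed without WT 10 dpi replicate 3. Removal of any other WT library lowered the count to between 337 and 2176, so the number of calls in WT is no measure of how much WT nodules changed.

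Of 18475 features tested in both genotypes, 1369 fell in both, which is 20.8% of the 6573 that fell in cpop1 and 56% of the 2443 that fell in WT. Another 350 rose in both, 13.3% of the 2634 that rose in cpop1 and 34.2% of the 1022 that rose in WT. For comparison, 13% of the 19872 features tested in WT fell and 6.44% rose, and 36.1% and 14.8% of the 20431 tested in cpop1. These shares are over all features of each fit, not only the 18475 tested in both. In opposite directions, 172 fell in cpop1 and rose in WT, 2.62% of the cpop1 and 16.8% of the WT list. The reverse held for 216, 8.2% of the cpop1 rises and 8.84% of the WT falls. Without WT 10 dpi replicate 3 the WT lists were longer, with 5991 falls and 3237 rises among the 18475 features. Then 3018 fell in both, 45.9% of the cpop1 and 50.4% of the WT list. Another 895 rose in both, 34% and 27.6% of the lists. In opposite directions, 649 fell in cpop1 and rose in WT (9.87% and 20% of the lists). The reverse held for 562 (21.3% and 9.38%). The larger overlap thus came with longer WT lists and is no measure of closer agreement.

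Beside the falls of cpop1, the WT changes lay mostly below 0, and beside its rises their median lay above that of all features. Among the 2223 features that fell at least 2-fold in cpop1, the median log2 change was -1.44 in cpop1 and -0.77 in WT, and 1744 had a WT change below 0. Among the 778 that rose at least 2-fold, the medians were 1.39 and 0.03, with 398 WT changes above 0. Over all 18475 features the medians were -0.19 in cpop1 and -0.20 in WT. Most of all features thus had a WT change below 0 as well, and their exact share was not counted. Without WT 10 dpi replicate 3, the WT medians were -0.60 for the falls, 0.20 for the rises and -0.15 over all. Then 1721 of the 2223 had a WT change below 0 and 471 of the 778 a WT change above 0. The features were chosen by their change in cpop1, which draws the cpop1 medians outward, and the contrast between falls and rises was not tested.

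A test of the difference itself, fitted to all 12 libraries, found 4441 of 22249 features (20%) whose age change differed between the genotypes, 2161 with a more positive and 2280 with a more negative change in cpop1 (limma, adjusted p under 0.05). Without WT 10 dpi replicate 3 the number was 8647, and without cpop1 21 dpi replicate 1 it was 2858.

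LotjaGi1g1v0066900 moved in opposite directions. It was at 54.7, 35 and 15.9 FPKM in young and 155.7, 184 and 162.2 FPKM in mature cpop1 nodules, and at 31.3, 36 and 90.4 FPKM in young and 2.37, 3.86 and 3.21 FPKM in mature WT nodules. The ages were separate in both genotypes, with a rise of 2.38 ± 0.38 in cpop1 and a change of -3.54 ± 0.42 in WT on the log2 scale (limma adjusted p = 0.00171 and 0.00741). The difference was 5.92 ± 0.63 (limma adjusted p = 0.000235), and 5.45 without WT 10 dpi replicate 3.

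LotjaGi6g1v0282700 rose slightly in cpop1 and fell in WT. The cpop1 libraries were at 63.1, 99.7 and 106.1 FPKM at 10 dpi and at 157.1, 149.8 and 108.1 FPKM at 21 dpi, which gave 0.64 ± 0.22 on the log2 scale with an adjusted p of 0.0456 (limma). The WT libraries were at 11.5, 19 and 273 FPKM and then at 0.85, 0.57 and 0.29 FPKM, which gave -4.72 ± 1.13 with an adjusted p of 0.0365 (limma). Young WT replicate 3 was far above the others, and the difference between the age changes was 5.36 ± 1.24 with it and 3.99 without it (limma adjusted p = 0.0134 and 2.5e-05).

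LotjaGi1g1v0539500 fell in cpop1 from 266.2, 85.8 and 22.1 FPKM to 0.79, 1.85 and 0 FPKM, whereas WT stood at 203.8, 200.3 and 27.9 FPKM at 10 dpi and at 267.6, 350.5 and 302.2 FPKM at 21 dpi. The young cpop1 libraries spanned a wide range but all lay above the mature ones. The log2 change in cpop1 was -5.56 ± 0.82 (limma adjusted p = 0.00118). The difference from WT was -7.09 ± 1.27 (limma adjusted p = 0.00394), and -6.15 without WT 10 dpi replicate 3.

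LotjaGi3g1v0246500_LC, 1 of the 11 lost features above, fell from 151.7, 85.5 and 40.5 FPKM to 0.34, 0.69 and 0 FPKM in cpop1 (log2 change -5.96 ± 0.44, limma adjusted p = 6.82e-05). In WT it rose from 38.4, 32 and 38.6 FPKM to 85.8, 69.2 and 83.8 FPKM (1.11 ± 0.15, limma adjusted p = 0.00971). All WT libraries lay between the young and mature cpop1 levels or within the young range, and WT replicate 3 at 10 dpi was like its replicates here. The difference was -7.07 ± 0.54 (limma adjusted p = 3.79e-05), and -7.11 without that replicate.

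**Figure D5:**
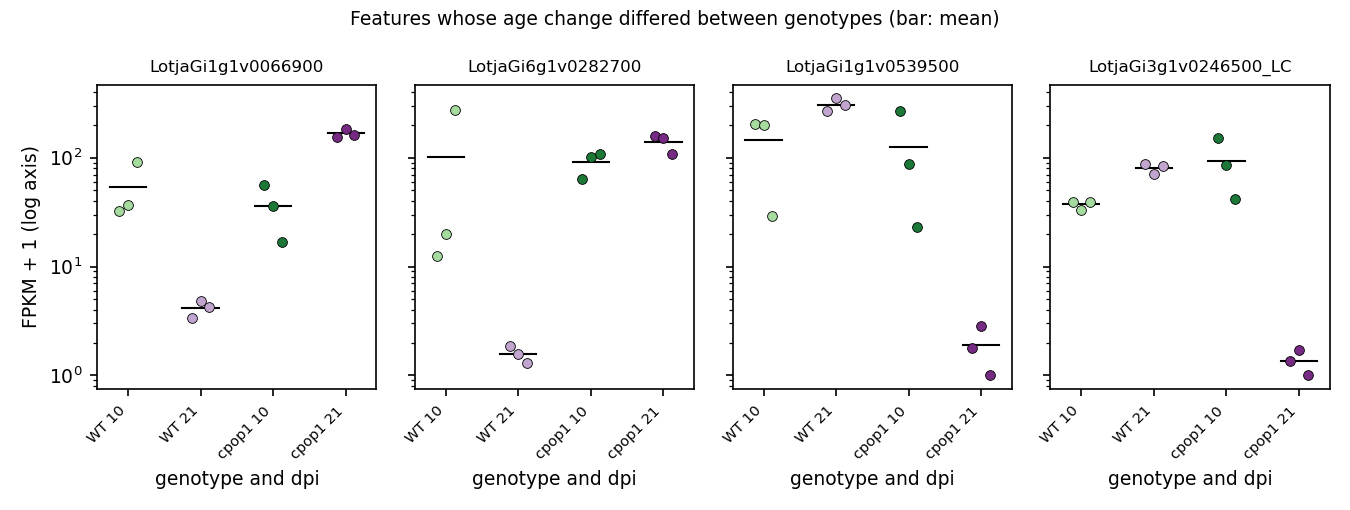
FPKM + 1 (log axis) of 4 features in each library of the 4 groups, with the group mean as a bar. The first 2 features rise with age in cpop1 and fall in WT, and the other 2 fall in cpop1 to 1.85 FPKM or less while mature WT libraries stay at 69.2 FPKM or more.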

How the data were processed

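The deposited table holds FPKM values by the authors, 1 column per library with 2 decimals, per the file headers. The submitters' processing notes name HISAT and Bowtie2 2.2.5 without a role. Which tool gave the FPKM, and on which build and annotation, is not given in the sources used here. Columns named hemf2 were tied to the cpop1 samples through the description in the labels. The table has 29531 rows, and 2 IDs on 4 rows were kept apart by row.

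Features at 1 FPKM or more in at least 3 libraries of a fit were tested with limma 3.58.1 in R 4.3.3 (lmFit, eBayes with trend) on log2(FPKM + 1), which understates changes of low features. P-values were Benjamini-Hochberg adjusted over all features tested, with a threshold of 0.05. Each genotype's age change was fitted to its own 6 libraries, and the difference of the age changes to all 12. The fit was tested on simulated data. Shares of total FPKM were compared by exact permutation, and Python 3.11.15, pandas 2.3.3 and matplotlib 3.10.9 served for descriptions and plots.

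Named features are the 2 that rose and the 2 that fell most in cpop1 (called, no overlap, mean of 20 FPKM or more at the higher age), the 2 of each direction with the largest FPKM difference among calls of at least 2-fold, the 3 most abundant, and the 2 most positive and 2 most negative differences between genotypes also called in cpop1, with a mean of 20 FPKM or more in a group. A feature named under more than 1 rule counts under each. The members, rules and tests were chosen with earlier results of these data known. The overlaps with WT, and the genotype differences of features named for the cpop1 change, without replicate 3 of WT at 10 dpi were added after seeing the data. No gene list could be applied because no ID matched the names of assembly LjGifu_v1.2, and none of the 40429 genes there could be placed.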

Additional observations from a re-analysis of the deposited data

Results flagged for a closer look

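A test of the difference itself showed 4441 features whose change with age differed between cpop1 and WT. The named ones are LotjaGi1g1v0066900 with a difference of 5.92 and LotjaGi6g1v0282700 with 5.36, both more positive in cpop1, and LotjaGi1g1v0539500 with -7.09 and LotjaGi3g1v0246500_LC with -7.07, on the log2 scale. Each kept its direction and passed the test without any single library. They were chosen as the largest differences among the calls in these same libraries. That choice draws their estimates outward, so the repeats are a description and no independent support. With WT 10 dpi replicate 3 left out the values were 5.45, 3.99, -6.15 and -7.11 in the same order.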

How the results depend on the processing

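The 10384 age changes called in cpop1 (3015 higher, 7369 lower, 29% higher) became 6599 (1810 higher, 4789 lower) with all 12 libraries in the fit. The calls were 5422 higher and 4492 lower (54.7% higher) after a shift to a common median, 5011 and 4689 (51.7%) after quantile normalization, 17.5% higher at a common total and 41.2% higher at a common total without the 20 most abundant. Without single libraries the counts ranged from 8197 to 11424 in all, 2290 to 3415 higher and 5764 to 8009 lower, 27% to 29.9% higher. Other pseudocounts, filters, variance models and library weights kept the count within 1.5 times. The replicate numbers did not pair the cpop1 libraries (correlations of same-numbered deviations of -0.005, 0.027 and -0.085), and with the replicate number as a block 9596 features were called. Only 1 of the 3 young libraries correlated best with the mature library of its own number.

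LotjaGi5g1v0024700 turned to -0.15 under quantile normalization, which gives equal ranks equal values by construction, and did not pass with the block (limma adjusted p = 0.123). The increase of the share of the 20 most abundant was 17.4 percentage points, and 16.9 to 18.2 without single libraries.

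The WT count of 3870 became 1284 with the block, 8977 with library weights and 7801 with all 12 libraries in the fit, and ranged from 337 to 9933 without single libraries. The 4441 differences between the genotypes became 13318 with library weights and ranged from 2858 to 8647 without single libraries. The causes were not tested. Read depth is unknown, so no counting error can be given for low values.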
